A study of Mus musculus with 14 samples.

Results

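The Hox genes are the transcription factor genes that give body segments their identity along the head-to-tail axis. They were taken as every gene whose symbol is Hoxa, Hoxb, Hoxc or Hoxd followed by digits alone, which gave 38 genes of the 21929 measured. The HoxA cluster had 11 members, the HoxB cluster 10, the HoxC cluster 9 and the HoxD cluster 8, and each gene was read by 1 probe set. The probe set named Hoxd3 also lists Hoxd4 in its annotation, so its values may hold both transcripts.

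RNA came from the proximal epididymis of mice aged 8 weeks, collected 48 hours after surgery, and 100 ng of total RNA was labelled for each Clariom S mouse array. The epididymis is the coiled duct in which sperm mature, and its most proximal part receives testicular fluid through the efferent ducts. In each mouse 1 epididymis underwent a sham operation and the other an efferent duct ligation (EDL), which stops that inflow. Control mice (Ctl, 4 mice) were compared with conditional knockouts (cKO, 3 mice) lacking Arl13b, a small GTPase of primary cilia, in Krt5-positive basal cells, so each genotype has a sham and an EDL group, with 14 arrays in all. The strain, the Cre line and the alleles carried by Ctl mice are not stated by the labels. Each value is a log2 RMA level, and a level may be set against another only for the same gene, since probe sets differ in brightness.

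Within a cluster the genes lie in the order of their paralogue groups, and the group number rises from anterior to posterior action. Hox proteins bind DNA together with the TALE cofactors of the Pbx, Meis and Pknox families. The epididymis forms from the Wolffian duct, where Hoxa9, Hoxa10, Hoxa11 and Hoxa13 are known in the mouse embryo for nested domains that run from the epididymis towards the vas deferens and seminal vesicle, and loss of Hoxa10 or Hoxa11 gives the vas deferens features of the epididymis.

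The labelled tissue held its own markers. All 9 genes of the initial segment list and all 7 of the caput list lay above 5.31 on the sham arrays, which is the 95th percentile of 1459 olfactory and vomeronasal receptor genes used as a background. Of 5 markers of neighbouring organs measured, 3 also lay above it, and Svs2 and Svs5 of the seminal vesicle lay below it. The 3 above it are from among Svs4, Insl3, Cyp17a1 and Star, and the source of their signal was not tested. Arl13b itself ran from 6.87 to 7.46 in Ctl sham and stood at 7.24, 7.20 and 7.15 in cKO sham, so the whole-tissue level did not show the deletion, which the design places in basal cells. The labels do not say whether the probes lie inside the deleted part.

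Of the 38 Hox genes, 31 lay above the receptor background in all 4 groups. The 7 others were Hoxb13, Hoxc10, Hoxc11, Hoxd11 and Hoxd13, which lay below it in every group, Hoxa3, which passed it in 2 groups, and Hoxd10, which passed it in 3. Differences in these 7 genes are read near the floor of the array. Other members lay little above 5.31, and the same limit bears on them. Among them Hoxa10, Hoxa11, Hoxa13 and Hoxd12 averaged 5.96, 5.82, 5.88 and 6.02 over all arrays, between the 97.6 and 98.8 percentiles of the receptor genes. Hoxb1 passed the background in each group but read 5.23, below it, in Ctl EDL replicate 3.

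After ligation Hoxb6 and Hoxb7 fell in both genotypes. In Ctl mice 4 Hox genes fell and 0 rose at a limma adjusted p under 0.05 over all genes: Hoxb1, Hoxb6, Hoxb7 and Hoxb9. That is 10.5% of the members called lower, beside 4.57% of all genes called lower and 3.32% called higher. The median Hox difference was 0.04 on the log2 scale, beside 0.01 for all genes. Another 6 members had an unadjusted p under 0.05 without passing, of the 10 that did so in all, beside 4453 of all genes. The plot of levels on each array shows the 8 Hox genes that passed the threshold in at least 1 comparison.

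**Figure D1:**
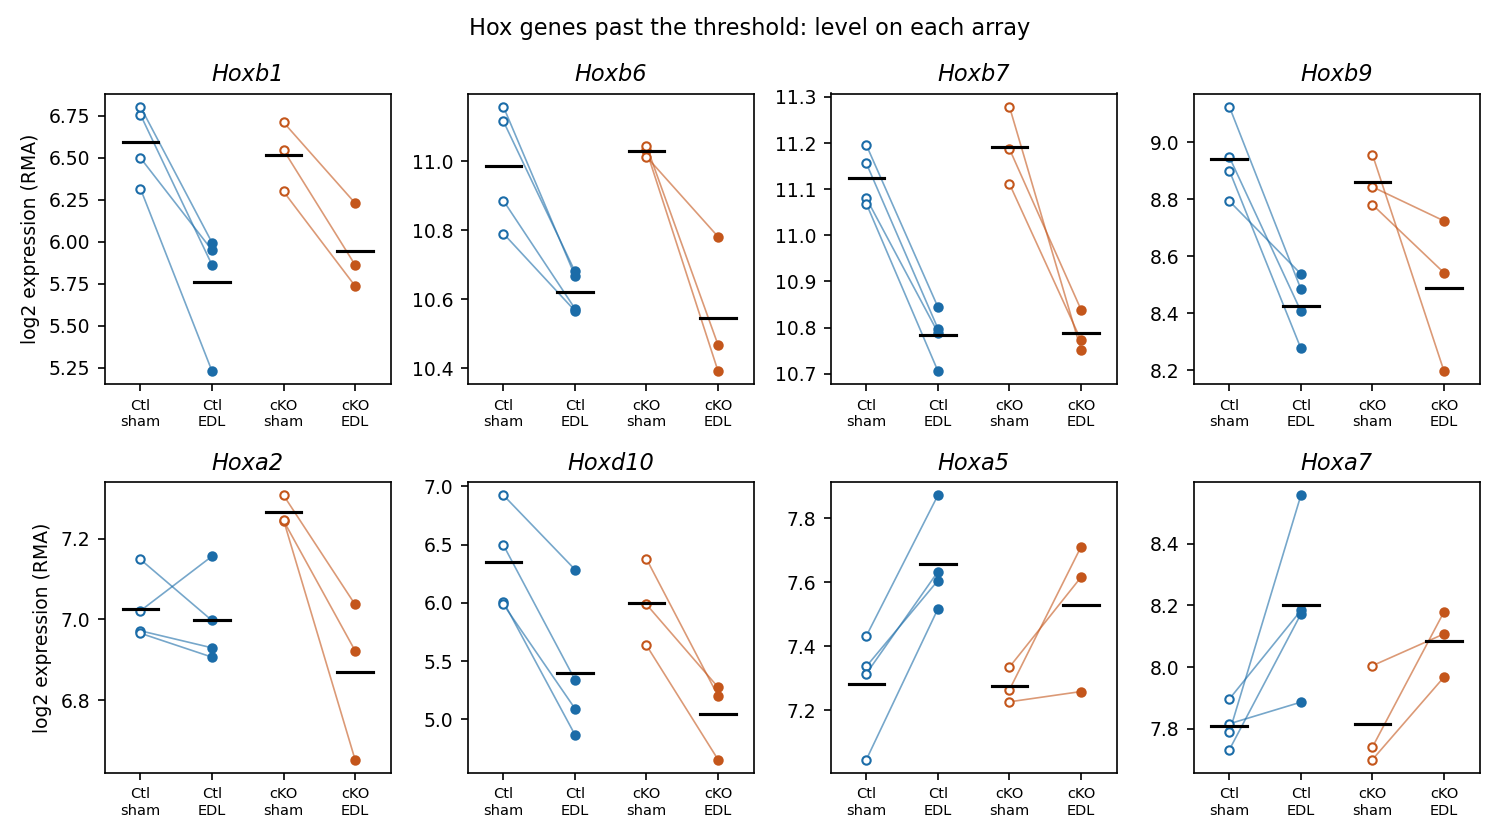
Level of each of the 8 Hox genes past the threshold in at least 1 comparison (vertical axis, log2 RMA expression, a separate scale in each panel) by group. Open points are sham arrays and filled points EDL arrays, thin lines join the sides of a mouse, and black bars are group means; for Hoxb7 every EDL point lies below every sham point in both genotypes.

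Hoxb7 marks the Wolffian duct and its derivatives, and its promoter is widely used to drive transgenes in that epithelium in mice. It stood at 11.20, 11.08, 11.07 and 11.16 in the Ctl sham arrays and at 10.84, 10.79, 10.71 and 10.80 in Ctl EDL. In cKO mice the sham arrays read 11.28, 11.11 and 11.19, and the EDL arrays 10.75, 10.77 and 10.84. The sham and EDL values do not overlap in either genotype, and the highest EDL value of all 7 mice is below the lowest sham value. The log2 difference was -0.34 ± 0.07 (SE, limma adjusted p = 0.00444, n = 4 and 4) in Ctl and -0.40 ± 0.08 (adjusted p = 0.00357, n = 3 and 3) in cKO. Averaged over genotypes it was -0.37 ± 0.05 (limma adjusted p = 0.000108), a fall of 1.29-fold, and it was lower on the ligated side of 7 of 7 mice, by 0.29 to 0.53.

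Hoxb6, the neighbour of Hoxb7 in the cluster, patterns the trunk in the mouse embryo. Its Ctl sham values were 10.89, 10.79, 11.12 and 11.16 and its Ctl EDL values 10.57, 10.57, 10.68 and 10.67. The cKO sham arrays read 11.03, 11.01 and 11.04 against 10.39, 10.78 and 10.47 after ligation. All 7 EDL values lie below all 7 sham values, although the gap between 10.78 and 10.79 is narrow. The difference was -0.37 ± 0.10 in Ctl (limma adjusted p = 0.0337) and -0.48 ± 0.11 in cKO (adjusted p = 0.015). Averaged, Hoxb6 fell by 0.42 on the log2 scale (limma adjusted p = 0.00111). The Ctl call is close to the threshold, with a highest limma adjusted p of 0.113 in the alternatives. It was lost when any Ctl EDL array, or the sham array of Ctl mouse 4 or 5, was left out. The cKO call was lost without cKO sham replicate 2, cKO EDL replicate 2 or cKO EDL replicate 4, and when the cKO arrays were fitted alone.

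Hoxb9 is the last gene of the contiguous HoxB block before a gap to Hoxb13, and in the mouse it patterns the rib cage and mammary gland. The Ctl sham values were 8.90, 9.13, 8.79 and 8.95, and the Ctl EDL values were 8.28, 8.48, 8.54 and 8.41. In cKO the values were 8.78, 8.96 and 8.84 on the sham side and 8.54, 8.20 and 8.72 on the ligated side. Again no EDL value reached a sham value, and cKO EDL replicate 4 lay nearest to the sham range. Hoxb9 fell by 0.52 on the log2 scale in Ctl (SE 0.11, limma adjusted p = 0.00862), while in cKO the difference of -0.37 ± 0.13 missed the threshold (adjusted p = 0.0807). The average was -0.44 ± 0.08 (limma adjusted p = 0.00172).

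Hoxb1, at the opposite end of the cluster, gives rhombomere 4 of the hindbrain its identity. The Ctl sham arrays read 6.50, 6.32, 6.76 and 6.80 and the Ctl EDL arrays 5.95, 5.23, 5.86 and 5.996. The cKO values were 6.30, 6.55 and 6.71 on the sham side and 5.74, 5.86 and 6.23 after ligation. Sham and EDL values are separate in both genotypes. The difference was -0.83 ± 0.17 in Ctl (limma adjusted p = 0.00737), a fall of 1.78-fold, and -0.58 ± 0.20 in cKO (adjusted p = 0.0887, and 0.0135 with the mouse as a fixed block). Averaged, Hoxb1 fell by 0.70 on the log2 scale (limma adjusted p = 0.00166) and was lower in 7 of 7 mice.

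The 250 bases before the RefSeq start (GRCm38.p6) of 3 of the 6 genes that fell on average are shown, because Hoxb1 and Hoxa2 hold a Hox-Pbx type motif there and Hoxd10, the gene with the largest fall, does not. Capitals mark matches on either strand to TGATNNAT, a consensus for Hox-Pbx pairs, or to AGGAAG, a core of the ETS factors that act in the initial segment. The regions are chr11:96365508-96365757 on the plus strand for Hoxb1, chr6:52164832-52165081 on the minus strand for Hoxa2 and chr2:74691641-74691890 on the plus strand for Hoxd10.
Hoxb1: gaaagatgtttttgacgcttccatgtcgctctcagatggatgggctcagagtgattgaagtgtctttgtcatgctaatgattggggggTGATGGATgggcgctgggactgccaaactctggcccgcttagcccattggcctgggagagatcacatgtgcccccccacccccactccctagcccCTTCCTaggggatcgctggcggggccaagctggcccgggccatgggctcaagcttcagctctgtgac
Hoxa2: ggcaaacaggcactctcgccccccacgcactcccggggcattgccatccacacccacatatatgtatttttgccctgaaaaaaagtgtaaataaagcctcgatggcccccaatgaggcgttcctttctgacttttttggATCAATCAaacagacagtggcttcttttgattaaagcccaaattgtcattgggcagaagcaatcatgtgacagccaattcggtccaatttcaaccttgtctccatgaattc
Hoxd10: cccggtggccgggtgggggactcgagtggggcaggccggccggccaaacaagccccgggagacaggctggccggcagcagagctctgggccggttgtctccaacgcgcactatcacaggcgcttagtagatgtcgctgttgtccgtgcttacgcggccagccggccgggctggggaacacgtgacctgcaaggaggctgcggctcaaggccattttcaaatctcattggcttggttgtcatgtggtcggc

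In Hoxb1 the Hox-Pbx match starts 162 bases before the gene's start and the ETS match, on the minus strand, 67 bases before it. This stretch holds the repeats through which Hoxb1 with Pbx sustains its own transcription in the mouse hindbrain. In Hoxa2 the match lies on the minus strand and its first printed base is 111 bases before the start. The TGATNNAT motif occurs in 7.7% of 32851 promoters of that length and AGGAAG in 29.5%, and neither motif overlaps the other in these 3 sequences. Of the members, 21 genes matched a promoter in the table, with 23 promoters in all, of which 4 hold TGATNNAT and 6 hold AGGAAG. Hoxa5 and Hoxa7, which rose on average, have neither motif in their 250 bases. Hoxb6, Hoxb7 and Hoxb9 had no entry. A match describes letters and says nothing about binding.

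The 4 HoxB genes called lower do not form an unbroken run of calls, as the plot along each cluster shows. Hoxb8 lies between Hoxb7 and Hoxb9 and read 11.25, 11.16, 11.19 and 11.19 in Ctl sham against 11.07, 11.03, 11.03 and 10.90 in Ctl EDL. These Ctl values do not overlap, but the difference of -0.19 ± 0.07 missed the threshold (limma adjusted p = 0.121). In cKO the groups overlap, with 11.30, 11.17 and 11.06 against 11.16, 11.06 and 11.11. Averaged, Hoxb8 was at -0.13 ± 0.05, with a 95% interval from -0.24 to -0.01 (limma adjusted p = 0.118). It was lower on the ligated side of 6 of 7 mice. Hoxb8 passed as lower in 2 of 26 alternatives in Ctl and in 3 of 25 on average, so its break in the run rests on the threshold. Hoxb2, Hoxb3, Hoxb4 and Hoxb5, which lie between Hoxb1 and Hoxb6, had average differences of -0.05, 0.04, 0.09 and 0.01, with 95% intervals that stay between -0.17 and 0.26. Hoxb13, set apart at the 5′ end and below the receptor background in all groups, was at 0.27 ± 0.10 (limma adjusted p = 0.0744). Over the HoxB cluster 4 of 10 members fell on average and 0 rose, beside 8.6% and 9.58% of all genes, and the median was -0.09.

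**Figure D2:**
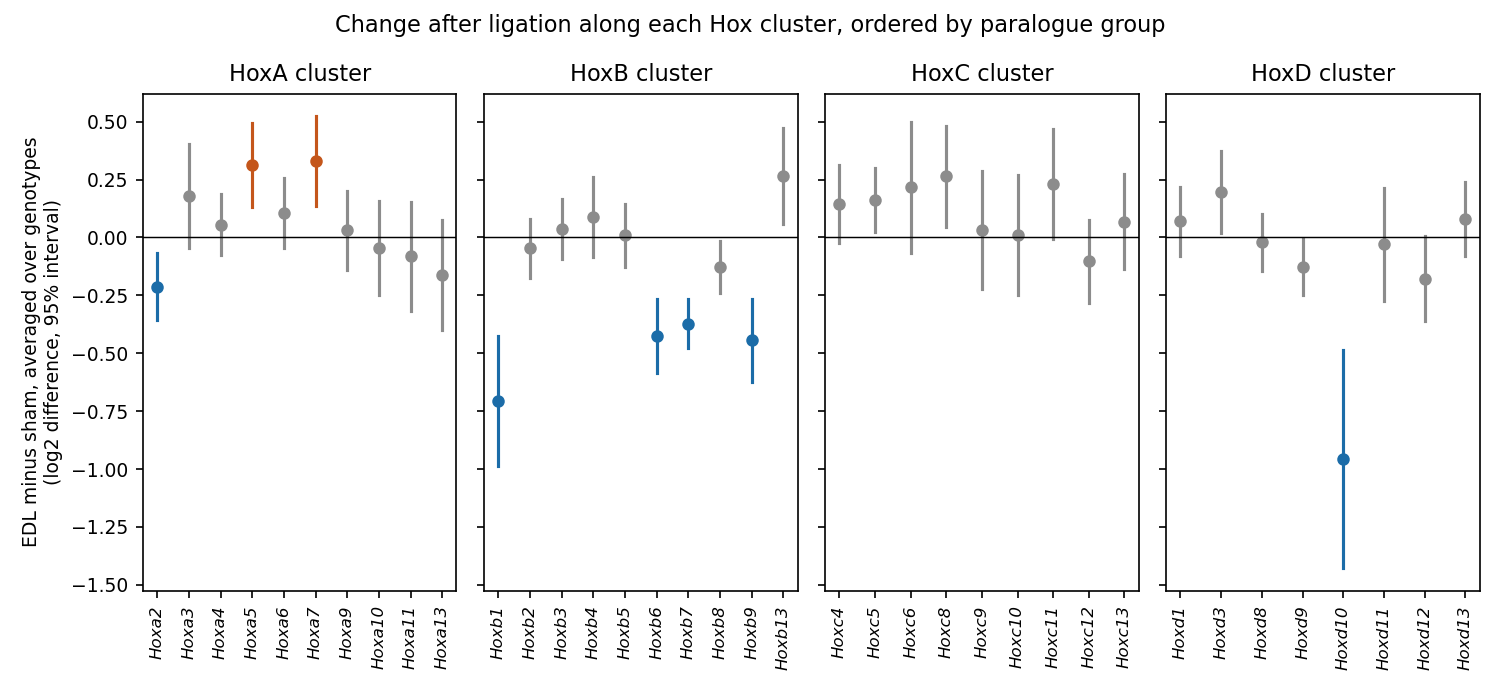
Log2 difference of EDL minus sham averaged over genotypes (vertical axis, points, with 95% intervals as lines) for 37 Hox genes, in 4 panels by cluster and ordered by paralogue group. Blue marks the 6 genes called lower, orange the 2 called higher and grey the 29 not called; the blue points of the HoxB panel sit at Hoxb1, Hoxb6, Hoxb7 and Hoxb9.

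In cKO mice 3 Hox genes fell after ligation and 0 rose: Hoxa2, Hoxb6 and Hoxb7. This is 7.89% of the members, beside 4.74% of all genes called lower and 5.04% called higher, and the Hox median was -0.04, which turned to 0.04 when the sham array of cKO mouse 4 was left out and to 0.02 when the EDL array of cKO mouse 3 was. With the mouse as a fixed block the count was 5, Hoxb1 and Hoxd10 being added, and with a random block it stayed at 3. Only Hoxb7 of the 3 remained without cKO sham replicate 2, cKO EDL replicate 2 or cKO EDL replicate 4, or when the cKO arrays were fitted alone. Without cKO EDL replicate 2, Hoxb13 and Hoxc11 were called higher, both of them below the receptor background in every group.

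Hoxa2 gives the second pharyngeal arch its identity. Its cKO sham values, 7.25, 7.31 and 7.25, all lie above the cKO EDL values of 6.92, 7.04 and 6.65. In Ctl mice sham and EDL overlap, at 7.15, 6.97, 7.02 and 6.97 against 6.998, 6.93, 7.16 and 6.91. The difference was -0.40 ± 0.10 in cKO (limma adjusted p = 0.0245) and -0.03 ± 0.09 in Ctl (adjusted p = 0.904). Its interaction term, -0.37 ± 0.13, had the smallest p of the Hox genes (unadjusted p = 0.0166) but did not pass over all genes (limma adjusted p = 0.985). The cKO call was lost in 7 of 26 alternatives, among them the second deposited table and the removal of cKO sham replicate 2, 3 or 4 or cKO EDL replicate 2 or 4 (adjusted p up to 0.105).

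When the ligation effect was averaged over genotypes, with all 7 mice on each side, 8 Hox genes passed. The 6 that fell were Hoxa2, Hoxb1, Hoxb6, Hoxb7, Hoxb9 and Hoxd10, which is 15.8% of the members beside 8.6% of all genes. The 2 that rose were Hoxa5 and Hoxa7, 5.26% beside 9.58%. Hoxb1, Hoxb6, Hoxb7 and Hoxb9, 10.5% of the members, had no overlap between the 7 sham and 7 EDL arrays, beside 7.54% of all genes. Hoxb1, Hoxb6, Hoxb7, Hoxb9, Hoxd9 and Hoxd10 were lower on the ligated side of every mouse, and Hoxa5, Hoxa7 and Hoxd3 were higher, beside 9.1% and 9.0% of all genes.

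Hoxd10, which in the mouse patterns limbs and hindlimb motor neurons, had the largest difference of any Hox gene. Its Ctl sham values were 6.01, 6.50, 5.99 and 6.92 and its Ctl EDL values 4.87, 5.34, 5.09 and 6.29. The cKO sham arrays read 5.63, 6.38 and 5.99 and the cKO EDL arrays 4.65, 5.20 and 5.28. The Ctl groups overlap because Ctl EDL replicate 5 is high, in the mouse whose sham side is also the highest, while the cKO groups are separate. Within mice the fall ran from 0.64 to 1.18 on the log2 scale in 7 of 7 mice. The average was -0.96 ± 0.22 (limma adjusted p = 0.00715). The Ctl difference of -0.96 ± 0.29 (limma adjusted p = 0.0585) and the cKO difference of -0.96 ± 0.33 (adjusted p = 0.0919) each missed the threshold alone. With the mouse as a fixed block the limma adjusted p of Hoxd10 was 0.00108 in Ctl and 0.00282 in cKO. All 3 cKO EDL values and 2 of the 4 Ctl EDL values lie below the receptor background of 5.31. These values lie above the receptor median of 3.69, and whether the floor of the array limited the measured fall was not tested.

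Hoxa5, known for lung and neck skeleton patterning, rose. It stood at 7.05, 7.34, 7.43 and 7.31 in Ctl sham against 7.52, 7.60, 7.87 and 7.63 in Ctl EDL. The cKO arrays read 7.33, 7.26 and 7.23 against 7.62, 7.71 and 7.26. The Ctl groups are separate, and the cKO groups overlap because cKO EDL replicate 4 stayed at its sham level. Averaged, the rise was 0.31 ± 0.09 (limma adjusted p = 0.0187), with 0.37 in Ctl (adjusted p = 0.0556, and 0.0296 with the mouse as a fixed block) and 0.25 in cKO (adjusted p = 0.272).

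Hoxa7 lies beyond Hoxa6 in the same cluster, and its probe set annotation also lists the noncoding transcript Mira. The Ctl sham values were 7.82, 7.90, 7.73 and 7.79 and the Ctl EDL values 7.89, 8.18, 8.17 and 8.56. In cKO they were 7.74, 7.70 and 8.004 on the sham side against 8.18, 7.97 and 8.11. Both pairs of groups overlap at 1 array. The difference was 0.39 ± 0.12 in Ctl (limma adjusted p = 0.0605) and 0.27 ± 0.14 in cKO (adjusted p = 0.273). The average rise was 0.33 ± 0.09 (limma adjusted p = 0.02), higher in 7 of 7 mice, and it missed the threshold without cKO sham replicate 2, cKO sham replicate 3 or cKO EDL replicate 2 (adjusted p up to 0.0523). Hoxa6, which lies between Hoxa5 and Hoxa7, did not pass at 0.11 ± 0.07 (limma adjusted p = 0.367).

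The average call of Hoxa2, -0.21 ± 0.07 (limma adjusted p = 0.041), was the least stable, being lost in 13 of 25 alternatives, among them the removal of any array but Ctl sham replicate 3, Ctl EDL replicate 4 or cKO EDL replicate 3. Those of Hoxa5, Hoxb1, Hoxb6, Hoxb7, Hoxb9 and Hoxd10 held in all 25. In the second deposited table, whose normalization is not stated, the changes were about as large for Hoxb1 (-0.67 on average) and larger for Hoxb7 (-0.74), Hoxb6 (-0.77), Hoxb9 (-0.78), Hoxa5 (0.57), Hoxa7 (0.69) and Hoxd10 (-1.40).

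In the authors' deposited table of comparisons, Hoxb1, Hoxb7 and Hoxb9 pass a Benjamini-Hochberg adjustment of its p-values at 0.05 for Ctl sham against Ctl EDL, and Hoxa2, Hoxb6 and Hoxb7 for cKO. The authors' deposited table gives Hoxb7 a p of 1.67e-05 in Ctl and 1.3e-05 in cKO. The authors' deposited table has 0 Hox genes past that adjustment in either genotype comparison, with 4 at an unadjusted p under 0.05 in sham and 0 in EDL.

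**Figure D3:**
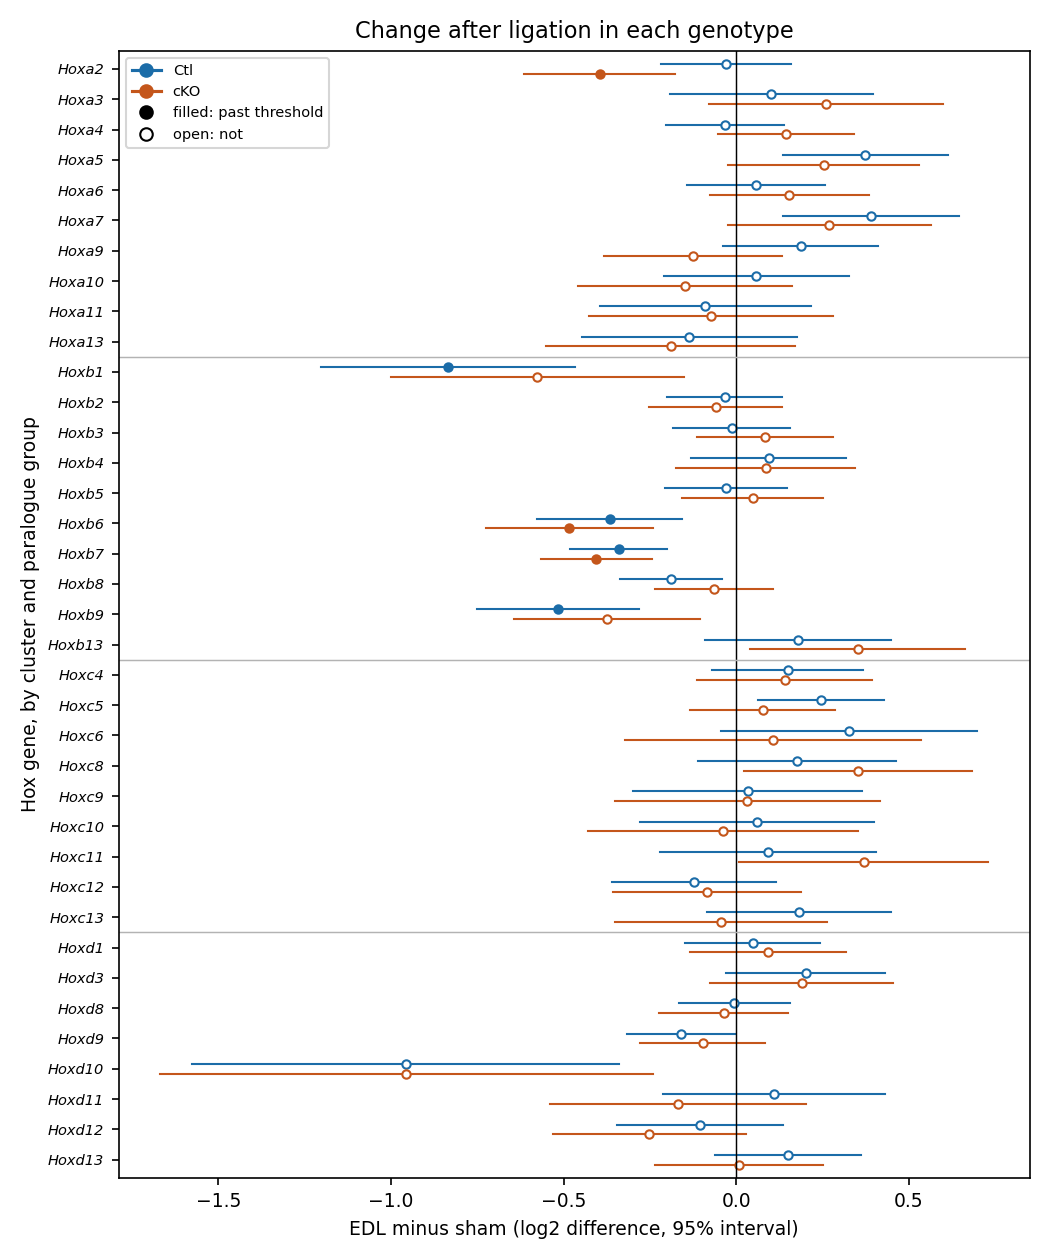
Log2 difference of EDL minus sham (horizontal axis) in Ctl (blue) and cKO (orange) for 37 Hox genes, with 95% intervals; filled points passed the threshold and open points did not. Hoxb6 and Hoxb7 are filled in both genotypes, Hoxb1 and Hoxb9 in Ctl alone and Hoxa2 in cKO alone, and the intervals of the genotypes overlap for each of these.

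Posterior genes of the HoxA and HoxD clusters, which carry segment identity along the Wolffian duct, are given next, and Hoxd10 alone of them passed. Hoxa9, the gene known for the epididymis itself, read 6.25, 6.11, 5.92 and 6.05 in Ctl sham and 6.12, 6.54, 6.07 and 6.34 in Ctl EDL. In cKO it read 6.12, 6.23 and 6.22 against 6.03, 5.98 and 6.19. Sham and EDL overlap in both genotypes. The average difference was 0.03 with a 95% interval from -0.14 to 0.20 (limma adjusted p = 0.854).

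Hoxa10, known in the mouse for the distal epididymis and vas deferens, stood at 6.12, 5.92, 5.95 and 5.84 in Ctl sham and at 6.06, 6.09, 5.91 and 6.01 in Ctl EDL. The cKO arrays read 6.18, 6.19 and 5.64 and then 6.12, 5.70 and 5.74 on the ligated side. The groups overlap throughout, and the average of -0.05 has an interval from -0.25 to 0.16.

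Hoxa11, known for the vas deferens, read 6.10, 6.05, 5.80 and 5.49 in Ctl sham, 5.88, 5.51, 5.81 and 5.89 in Ctl EDL, 5.83, 6.14 and 5.62 in cKO sham and 5.85, 5.87 and 5.65 in cKO EDL. Hoxa13, known for the most posterior duct and the external genitalia, read 5.98, 5.90, 6.25 and 5.80 in Ctl sham, 5.89, 5.64, 5.96 and 5.90 in Ctl EDL, 5.71, 5.82 and 6.27 in cKO sham and 6.07, 5.64 and 5.52 in cKO EDL. Neither gene separated the sides in either genotype. Their average differences were -0.08 (interval -0.32 to 0.15) and -0.16 (interval -0.40 to 0.08).

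Of the HoxD cluster, Hoxd9 overlaps Hoxa9 in its role in the limb and axial skeleton. It read 8.82, 8.89, 8.85 and 9.07 in Ctl sham and 8.76, 8.61, 8.78 and 8.85 in Ctl EDL. In cKO the values were 8.92, 8.87 and 8.89 against 8.78, 8.82 and 8.79. The cKO groups are separate by a narrow margin and the Ctl groups overlap at 1 array. Hoxd9 was lower on the ligated side in 7 of 7 mice, yet the average of -0.13 ± 0.06 did not pass (limma adjusted p = 0.142).

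Hoxd12 and Hoxd13 act in the digits, and Hoxd13 also in the genital tubercle and male accessory glands. Hoxd12 read 6.34, 5.90, 6.11 and 5.92 in Ctl sham, 6.10, 5.98, 5.98 and 5.78 in Ctl EDL, 6.23, 5.93 and 6.33 in cKO sham and 5.91, 5.997 and 5.83 in cKO EDL. Its average of -0.18 has an interval from -0.36 to 0.01 (limma adjusted p = 0.186). Hoxd11, which acts with Hoxa11 in limb and kidney, read 3.76, 3.94, 3.77 and 3.83 in Ctl sham, 3.86, 3.80, 4.35 and 3.73 in Ctl EDL, 4.18, 4.14 and 3.83 in cKO sham and 3.86, 4.22 and 3.56 in cKO EDL. Hoxd13 read 4.28, 4.32, 4.15 and 4.26, then 4.46, 4.51, 4.39 and 4.26, then 4.30, 4.30 and 4.48, and 4.64, 4.31 and 4.16, in the same order of groups. Both lie below the receptor background. Over paralogue groups 9 to 13 of all clusters, 2 of 16 members fell on average, Hoxb9 and Hoxd10, and 0 rose, beside 8.6% and 9.58% of all genes.

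No member of the HoxC cluster passed in any comparison. The average differences of its 9 genes ran from -0.10 to 0.26, with a median of 0.14, beside 0.01 for all genes. Hoxc8, known for the thoracic skeleton and brachial motor neurons, had the largest, 0.26 ± 0.10 (limma adjusted p = 0.0933). Its Ctl sham values were 8.78, 8.65, 8.75 and 8.80 and its Ctl EDL values 8.63, 8.9995, 9.04 and 9.01, so 3 of the 4 ligated arrays lie above the sham range. The cKO values were 8.45, 8.62 and 9.05 against 8.81, 9.11 and 9.26. Hoxc8 passed with the mouse as a fixed block, as did Hoxd3 (average 0.20 ± 0.08, limma adjusted p = 0.124 without the block and 0.043 with it), which brought the average count to 10, while a random block left it at 8.

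**Figure D4:**
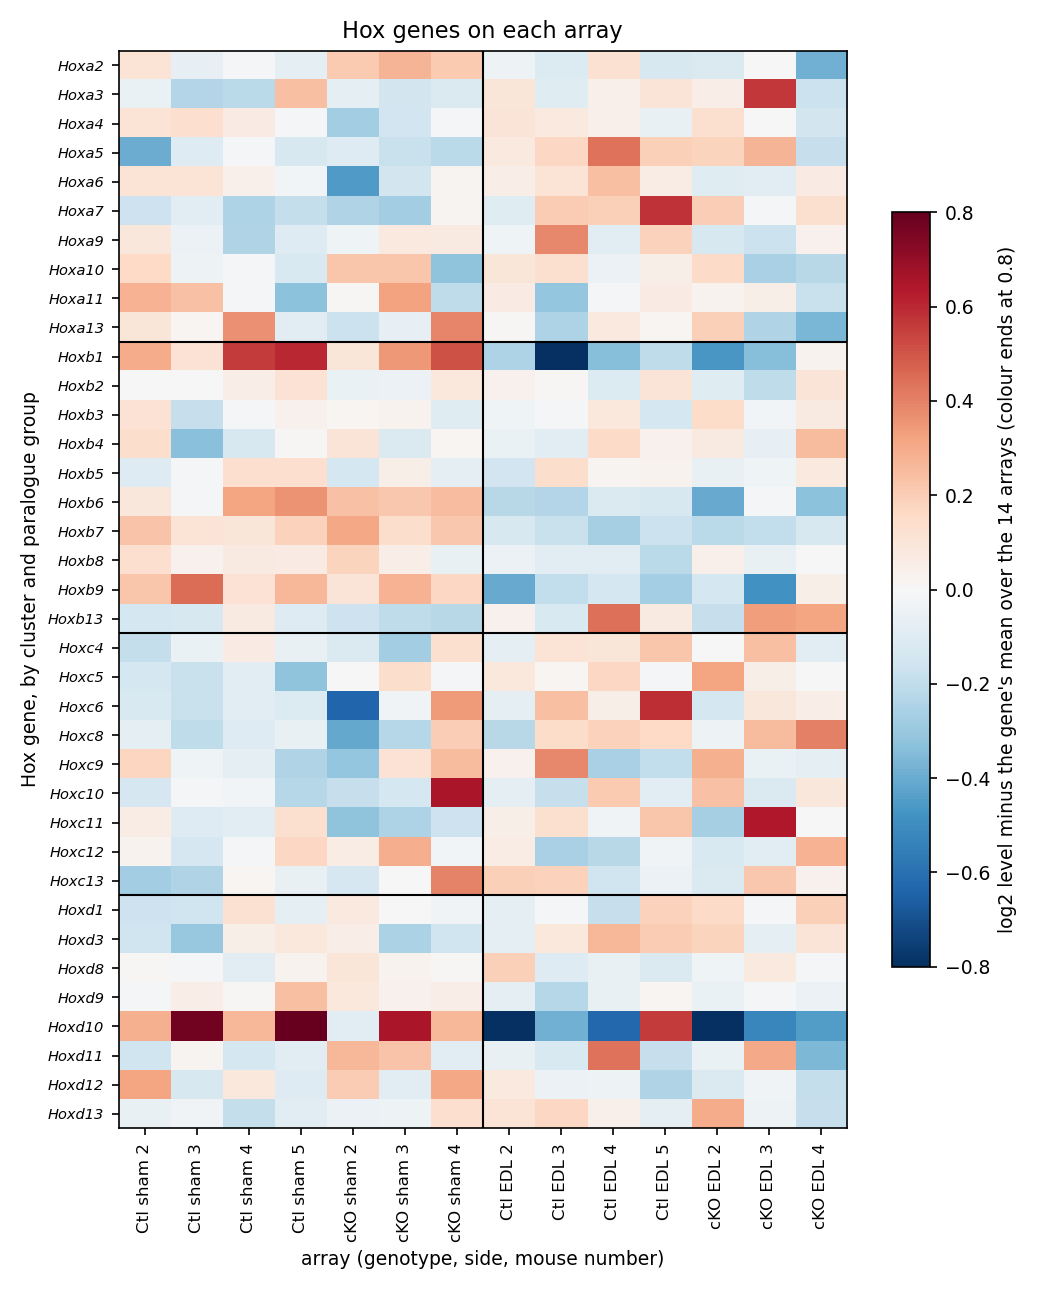
Deviation of 37 Hox genes (rows, by cluster and paralogue group) each from its own mean over the 14 arrays (columns, sham arrays left of the black line and EDL arrays right of it), as a log2 difference in colour that ends at 0.8 in each direction. The rows of Hoxb1, Hoxb6, Hoxb7 and Hoxb9 are red on the sham side and blue on the EDL side, apart from single arrays near the mean.

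The share of genes with no overlap between sham and EDL was 21.1% of the Hox genes in each genotype, 8 of 38, beside 14.1% of all genes in Ctl and 25.8% in cKO. In Ctl these were Hoxb1, Hoxb6, Hoxb7, Hoxb8 and Hoxb9 below, and Hoxa5, Hoxc5 and Hoxc6 above. In cKO all 8 lay below, among them Hoxa2, Hoxb1, Hoxb6, Hoxb7, Hoxb9, Hoxd9 and Hoxd10. The cKO share thus lies under that of all genes.

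Deletion of Arl13b in basal cells was next compared within each side. In sham tissue 0 of 38 Hox genes passed, as 0% of all genes did by limma, with 4 Hox genes and 800 of all genes at an unadjusted p under 0.05. The Hox median was 0.00 and the largest difference was that of Hoxd10, at -0.35 ± 0.31 on the log2 scale. The 3 of smallest p were Hoxa4, Hoxa2 and Hoxa6. Hoxa4, an anterior gene of the cluster, read 7.33, 7.36, 7.29 and 7.21 in Ctl sham and 6.94, 7.07 and 7.21 in cKO sham, a difference of -0.22 ± 0.09 (limma adjusted p = 0.999). These values just fail to overlap. Those of Hoxa2 are separate by more, reaching up to 7.15 in Ctl sham and starting from 7.25 in cKO sham, with a difference of 0.24 ± 0.10. Hoxa6 read 7.01, 7.01, 6.94 and 6.88 against 6.45, 6.75 and 6.92, which overlap. Groups did not overlap for 5 Hox genes, or 13.2%, beside 4.9% of all genes, and these were Hoxa2, Hoxa4, Hoxb13, Hoxc5 and Hoxc11.

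In ligated tissue 0 Hox genes passed between genotypes, beside 0% of all genes, and 0 had an unadjusted p under 0.05, against 1333 of all genes. No Hox gene was without overlap, beside 5.75% of all genes. The smallest p was that of Hoxa9, 6.12, 6.54, 6.07 and 6.34 in Ctl EDL against 6.03, 5.98 and 6.19 in cKO EDL, a difference of -0.20 ± 0.11 (limma adjusted p = 0.828). Hoxa6 followed with 6.95, 7.01, 7.14 and 6.96 against 6.81, 6.82 and 6.96, and Hoxb8 with the EDL values given above. The median half-width of the 95% interval over the Hox genes was 0.25 in each genotype comparison. That interval is not adjusted over all genes, so a difference of that size need not pass. In sham tissue the smallest limma adjusted p of any Hox gene was 0.999.

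The difference between the genotypes in their ligation response was tested as an interaction. By limma 0 Hox genes passed, beside 0% of all genes, with 1 Hox gene, Hoxa2, and 899 of all genes at an unadjusted p under 0.05. Hoxa9 came next at -0.31 ± 0.16 and then Hoxa4 at 0.18 ± 0.12 (both limma adjusted p = 0.985). For the HoxB genes that fell, the interaction was 0.26 ± 0.26 for Hoxb1, -0.12 ± 0.15 for Hoxb6, -0.06 ± 0.10 for Hoxb7 and 0.14 ± 0.17 for Hoxb9. A difference between the genotypes in the ligation response was thus not shown for any of them.

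Of 8 cofactors of Hox proteins reported here, 2 rose, 2 fell and 4 did not pass on average, beside 9.58% of all genes higher and 8.6% lower. Pbx3, a partner of Hox proteins, stood at 8.12, 8.05, 8.13 and 8.07 in Ctl sham and at 7.51, 7.60, 7.49 and 7.62 in Ctl EDL, and at 8.54, 8.14 and 8.14 in cKO sham against 7.76, 7.48 and 7.59. The sides are separate by a wide margin, and Pbx3 fell by 0.60 on the log2 scale (SE 0.07, limma adjusted p = 3.35e-05).

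Meis1 rose by 0.57 ± 0.12 (limma adjusted p = 0.0046) and Meis2 by 0.59 ± 0.16 (adjusted p = 0.0199), both of them cofactors that stabilise Pbx in the nucleus. Pknox1 fell by 0.22 ± 0.07 (limma adjusted p = 0.046), a call lost in 12 of 25 alternatives. Within genotypes, Pbx3 fell in both, and Meis1 rose in cKO, a call lost in 7 of 26 alternatives, among them the removal of cKO sham replicate 2 or 3 or cKO EDL replicate 3 or 4.

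**Figure D5:**
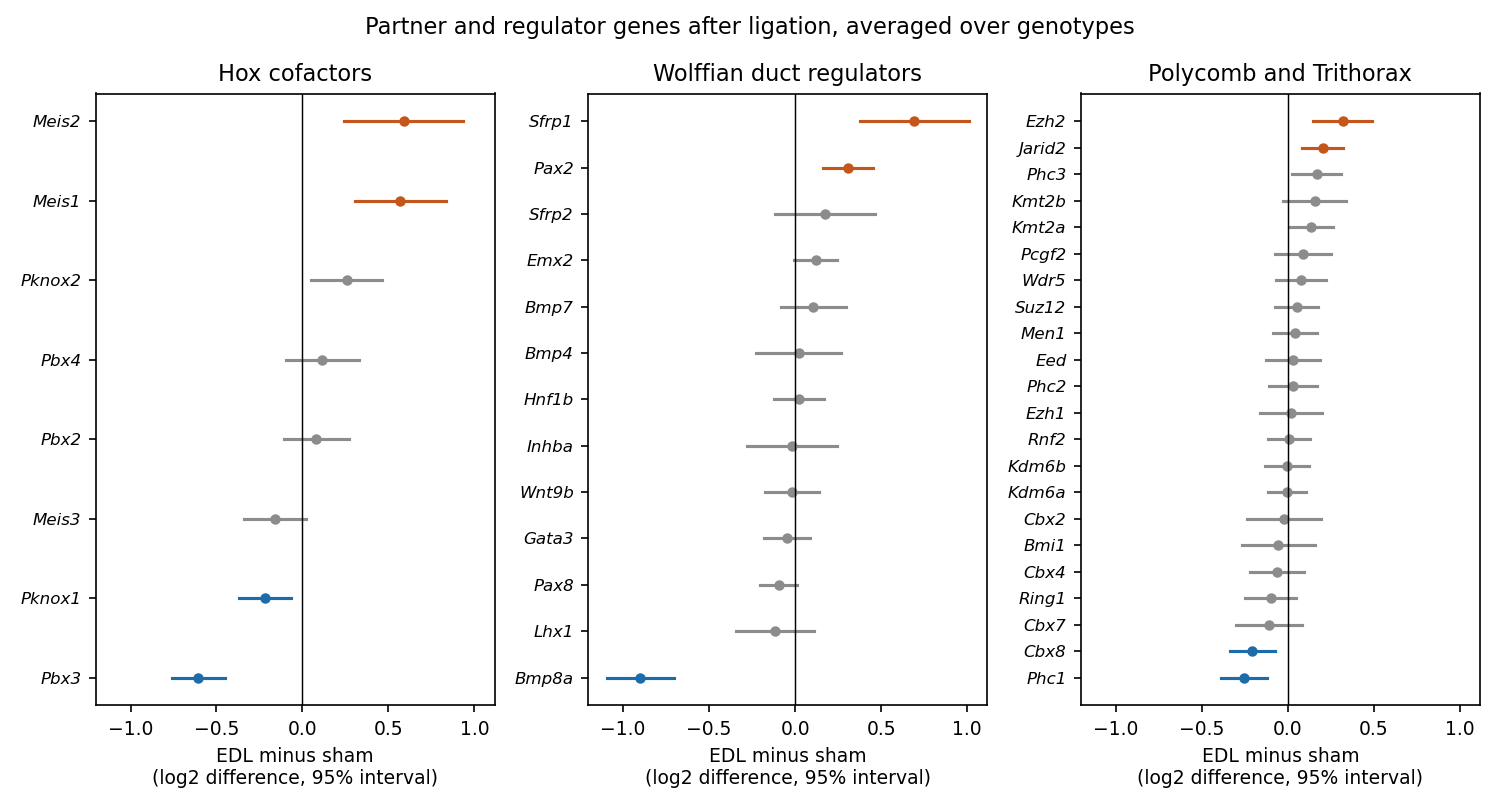
Log2 difference of EDL minus sham averaged over genotypes (horizontal axis) for 8 Hox cofactors, 13 Wolffian duct regulators and 22 Polycomb and Trithorax genes, with 95% intervals. Orange points are called higher, blue lower and grey not called; Meis1 and Meis2 lie above 0 and Pbx3 and Pknox1 below it.

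The Polycomb and Trithorax proteins keep Hox genes silent or active through cell division. Of 22 such genes measured, 2 rose and 2 fell on average, with a median of 0.03. These shares are near those of all genes, 9.58% higher and 8.6% lower. Ezh2, the methyltransferase of Polycomb repressive complex 2, rose by 0.32 ± 0.08 (limma adjusted p = 0.0123), and its partner Jarid2 by 0.20 ± 0.06 (adjusted p = 0.0196). Phc1 and Cbx8, subunits of Polycomb repressive complex 1, fell by 0.25 ± 0.06 (limma adjusted p = 0.0112) and by 0.20 ± 0.06 (adjusted p = 0.03). The calls of Jarid2 and Cbx8 were lost in 4 and 10 of 25 alternatives. In Ctl mice 0 of the 22 passed by limma, with 3 at an unadjusted p under 0.05, and in cKO Cbx8 alone passed (limma adjusted p = 0.0487), a call lost in 16 of 26 alternatives.

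Among 13 regulators of the Wolffian duct reported here, 2 rose and 1 fell on average, beside 9.58% and 8.6% of all genes. Bmp8a, a secreted factor that maintains the epididymal epithelium in mice, fell by 0.90 ± 0.09 (limma adjusted p = 7.16e-06), and passed in both genotypes. Pax2, needed to form the duct, rose by 0.31 ± 0.07 (limma adjusted p = 0.00601), and Sfrp1, a secreted Wnt inhibitor, by 0.69 ± 0.15 (adjusted p = 0.00452).

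Genes that border the clusters were examined as well. Of 10, 2 rose and 0 fell on average by limma, beside 9.58% and 8.6% of all genes. Skap2 beside the HoxA cluster rose by 0.21 ± 0.05 (limma adjusted p = 0.0134). Cbx5 beside the HoxC cluster rose by 0.18 ± 0.06 (limma adjusted p = 0.0433), a call lost in 13 of 25 alternatives. Skap1 and Ttll6 at the HoxB cluster did not pass. Of the 6 ParaHox genes, the evolutionary sister group of Hox, 0 passed on average by limma, with 0 at an unadjusted p under 0.05. Cdx2 rose in Ctl alone (0.39 ± 0.10, limma adjusted p = 0.0323), at levels of 4.37 and 4.77 that lie below the receptor background, and this call was lost in 9 of 25 alternatives.

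Markers of the segments themselves were compared in the same fit. On average 8.6% of all genes were called lower and 9.58% higher. Of 9 initial segment genes 8 fell on average, with a median of -2.86. Rnase10, a secreted protein of the initial segment, fell by 5.42 on the log2 scale (limma adjusted p = 1.06e-13), and Lcn9, a lipocalin, by 4.31. Of 7 caput genes 4 fell, with a median of -0.71, among them Lcn8 by 0.99. Of 4 genes listed for the distal epididymis and vas deferens, Crisp1 rose by 0.37 ± 0.07 (limma adjusted p = 0.00176). Lcn6, a lipocalin like Lcn8 and Lcn9, fell by 0.88. The regional placement of the genes in this list was not tested on these arrays, so the fall of Lcn6 is not read as that of a distal marker.

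The RNA of cell type markers moved with ligation as well. All 8 macrophage markers rose in each genotype, and the mean level of the list ran from 7.55 to 8.21 in Ctl sham, 8.72 to 9.26 in Ctl EDL, 7.39 to 8.01 in cKO sham and 8.98 to 9.12 in cKO EDL. Of 10 fibroblast markers 0 rose in Ctl by limma (5 at an unadjusted p under 0.05), 5 in cKO and 8 on average, and the list was lowest, at 7.71, in cKO sham replicate 2. Averaged over genotypes, 4 of 8 smooth muscle genes rose and 1 fell, and 5 of 6 endothelial genes rose. On that average 4 of 5 basal cell genes and 1 of 6 epithelial genes rose, and all 6 sperm genes fell. Of 4 clear cell genes 1 rose and 1 fell, and of 7 lymphocyte genes 0 passed by limma. The shares of all genes were 9.58% higher and 8.6% lower. Smooth muscle, endothelial and basal cell genes that rose numbered 0, 0 and 2 in Ctl by limma, and 3, 4 and 4 in cKO. Of the sperm genes 6 fell in Ctl and 4 in cKO. No fibroblast, smooth muscle, endothelial, basal cell or sperm gene passed the interaction by limma, so a difference between the genotypes was not shown. At an unadjusted p under 0.05 in the interaction the counts in these lists were 0, 0, 1, 4 and 0. The part of the marker shifts with ligation in the Hox and cofactor changes was not tested. In bulk RNA fewer cells of a type cannot be told apart from less RNA per cell. The mean level of the epithelial list stayed between 10.99 and 11.22 on all 14 arrays.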

How the data were processed

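The log2 values were deposited by the authors for 14 Clariom S arrays, and RMA, Partek 7.0 and Affymetrix Expression Console are named in the submitters' processing notes. The authors' deposited comparison table gives a p-value and a ratio per probe set for each pair of groups, and 152 of 152 Hox ratios computed here equalled the deposited ratio within 0.001 on the log2 scale. Its 14 array columns were not used, because the second identifier differed from the first in 26.2% of its lines. Another table of log2 values that the authors deposited, whose normalization is not stated, was used as an alternative. For arrays, their number limits the precision.

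The members and the companion lists were chosen with earlier results of these data known. The probe set of highest mean stood for each of 21929 genes. Group means were fitted to all 14 arrays with limma 3.58.1 (R 4.3.3), and p-values were adjusted by Benjamini-Hochberg over all genes, with 0.05 as the threshold. Figures and promoter searches used Python 3.11.15. Hox genes could all be named, but 1 Hox gene, 1 cofactor and 1 duct regulator are not reported here, and the counts over all 38 Hox genes include the first. Companion genes were named if called, up to 6 per list and comparison by smallest p, and up to 4 for segment lists.

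Each mouse gave a sham and an EDL side by the series' design, and the same number within a genotype was taken as the same mouse. Deviations of same-numbered arrays correlated between -0.002 and 0.198 over genes, with a consensus of 0.109. Only 2 of 7 exceeded 0.1, and Ctl mice 3 and 4 correlated at 0.055 and 0.024 with their own number but at up to 0.209 with another. The pairing, and each count of mice, thus rests on the design text and the numbers, not on these correlations. The fits with the mouse as a fixed or a random block were alternatives. All arrays carry 1 scan date.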

Additional observations from a re-analysis of the deposited data

Results flagged for a closer look

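Hoxc8 in Ctl EDL replicate 2, at 8.63 on the log2 scale, lay far from the other 3 arrays of its group, which read 8.9995 to 9.04. The gap was 0.912 of the group's range, above Dixon's 95% critical value for 4 samples. It was the only one marked among 76 groups of 4 tested, and chance marks about 1 in 20 such groups.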

How the results depend on the processing

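The count of Hox genes called after ligation in Ctl, 4, all lower, became 7 with the mouse as a random replicate block and 8 with a trended prior variance. It was also 8 at an adjusted p under 0.10 and in the second deposited table. In these 4 settings 2, 2, 3 and 2 of the genes called were higher, Hoxa5 and Hoxa7 among them in each. With the mouse as a fixed replicate block the Ctl count was 6, 1 of them higher, and leaving out 1 array gave 3 to 5. In cKO the count of 3 became 5 with the fixed replicate block and 6 at an adjusted p under 0.10, and leaving out 1 array gave 1 to 4, the lowest without cKO sham replicate 2. The random replicate block left it at 3. Averaged over genotypes the count of 8 was 10 with the fixed block, and leaving out 1 array gave 6 to 9. Both genotype comparisons and the interaction stayed at 0 Hox genes in every alternative run, the replicate block included where it could be fitted. The fixed block cannot be fitted for comparisons between mice. No called Hox or companion gene named changed sign in the alternatives run. The Hox median in cKO, -0.04, turned to 0.04 when the sham array of cKO mouse 4 was left out, and to 0.02 when the EDL array of cKO mouse 3 was. The changes in the second table were larger for most Hox genes called, and the cause was not tested. The number of arrays, 3 or 4 a group, limits the size of difference that could be called. In at least 1 group 7 Hox genes lie below the receptor background, and others lie little above it.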
